A study of Mus musculus with 12 samples.

Results

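The strain by surgery interaction asked whether hearts of Balb/cByJ mice changed their RNA under pressure load by another amount than hearts of Balb/cJ mice. For each gene it is the difference between transverse aortic constriction (TAC) and sham surgery in Balb/cByJ, minus the same difference in Balb/cJ, so a negative value means a smaller rise or a larger fall in Balb/cByJ. All 12 of the 12 libraries of the series entered it, and 14038 of the 27179 genes in the deposited table had a mean of at least 10 and were tested. The 4 groups were TAC Balb/cByJ, sham Balb/cByJ, TAC Balb/cJ and sham Balb/cJ, with 3 libraries of heart tissue each. The labels mark Balb/cByJ as carrying a deletion in Acads (∆ACADS) and name none for Balb/cJ. Feeding was the same in all 4 groups, a chow labelled 10 kcal% fat begun 4 days ahead of the operation, and hearts were collected 1 week later. The age of the mice is not given in the sources used here. These are substrains that differ at other genes as well, so the effect of the Acads deletion and that of the remaining strain background cannot be told apart. The labels do not say whether libraries of a group came from separate animals, so p-values reflect library-to-library spread, which may be technical.

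TAC narrows the aorta, so the left ventricle pumps against a raised pressure. Loaded cardiomyocytes grow and turn on fetal genes, fibroblasts lay down matrix, inflammatory cells enter, and genes of mitochondrial energy metabolism commonly fall. Acads encodes short-chain acyl-CoA dehydrogenase, which takes the first step in the mitochondrial oxidation of butyryl-CoA. A difference between differences carries the error of 4 group means, and its sign does not show which of them is unusual. For that reason each gene below is given in all 4 groups, with the group whose mean stood apart.

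The values are normalized, and their sums per library ran from 25161466 to 34157613, so the raw depth of each library is unknown. The heart muscle gene Myh6 was read at 543839 to 854520 in every library, as heart tissue would give. One library went against its label. At 33 genes that separated the 6 Balb/cJ libraries from the other 5 Balb/cByJ libraries by more than 4-fold, the library labelled TAC Balb/cByJ 6 lay nearer to Balb/cJ at 25 and nearer to Balb/cByJ at 8. Zhx2, a repressor known to differ between these substrains, had values of 728, 838 and 48 in TAC Balb/cByJ libraries 4, 5 and 6 and of 837, 767 and 831 in sham Balb/cByJ libraries 1 to 3. In Balb/cJ it had 47, 47 and 45 after TAC and 36, 32 and 21 after sham. Interactions, list medians and counts are therefore given for 12 libraries and again for the 11 without that library.

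The interaction passed in 1 gene. Prss35, which encodes a secreted protein of the serine protease family, was the gene, and its interaction was negative. No gene passed with a positive interaction. The call was made with limma at a Benjamini-Hochberg adjusted p under 0.1 over all genes tested, and 1 of 14038 is 0.00712%. Without the library labelled TAC Balb/cByJ 6 the count was again 1 (0.00712%), and again the gene was Prss35. At an unadjusted p under 0.05 there were 954 genes with 12 libraries (6.8% of those tested), 468 positive (3.33%) and 486 negative (3.46%). With 11 libraries there were 802 (5.71%), 404 positive (2.88%) and 398 negative (2.84%), and 585 genes were under 0.05 with the same sign both ways. The median standard error (SE) of an interaction was 0.22 log2 units (0.12 at the 5th and 0.69 at the 95th percentile of genes), and 0.23 with 11 libraries. All genes named below other than Prss35 have an interaction that did not pass, and their values are given as measured.

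The mm10 coordinates of Prss35 (Entrez 244954) in the table are chr9:86743633-86757508, plus strand, and the span holds 2 exons. Its values were 42, 56 and 113 in TAC Balb/cByJ and 38, 73 and 43 in sham Balb/cByJ. They were 69, 32 and 76 in TAC Balb/cJ and 0, 0 and 1 in sham Balb/cJ. The 3 sham Balb/cJ libraries thus lay below the other 9, and those 9 overlapped between groups. The interaction was -5.10 ± 0.66 (log2 ± SE, limma adjusted p = 0.0627) with 12 libraries and -5.50 ± 0.65 (adjusted p = 0.0393) with 11. Its parts were a difference of 0.38 for TAC in Balb/cByJ (adjusted p = 0.622), which did not pass, and a rise of 5.48 in Balb/cJ (adjusted p = 0.00032). Before load the strains already stood apart, by 5.32 (adjusted p = 0.000542). With values of 0 and 1 in a group the fitted size depends on the pseudocount, and with a pseudocount of 5 it was -3.15 and did not pass (adjusted p = 0.422). Nor did it pass with 12 libraries when TAC Balb/cByJ 5 (limma adjusted p = 0.165), sham Balb/cByJ 2 (0.139), TAC Balb/cJ 4 (0.103) or sham Balb/cJ 1 (0.139) was left out, nor without sham Balb/cJ 2 (0.269). With 11 libraries it did not pass without TAC Balb/cByJ 4 or 5, sham Balb/cByJ 1 or 2, TAC Balb/cJ 4 or 6, or sham Balb/cJ 2 (adjusted p = 0.121 to 0.272).

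The effect of TAC itself was of a like direction in both strains for most genes that passed in both. TAC passed in 1765 genes in Balb/cByJ (12.6% of those tested; 1097 higher, 7.81%, and 668 lower, 4.76%) and in 4419 in Balb/cJ (31.5%; 2146 higher, 15.3%, and 2273 lower, 16.2%). It passed in both strains in 1203 genes, of which 1200 moved the same way. The 3 that moved in opposite directions were Mctp1, Pdia6 and Manf, the last of these chosen after its values were seen. Without the library labelled TAC Balb/cByJ 6 the count in Balb/cByJ was 687 (4.89%; 557 higher, 3.97%, and 130 lower, 0.926%), and 540 of 541 genes that passed in both strains moved the same way, with Mctp1 as the exception. Across the 14038 genes, which are not independent replicates, the 2 effects correlated at r = 0.68 with 12 libraries and 0.69 with 11. The strains share no library in this comparison.

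A gene that passed in one strain and missed in the other need not differ between them. Of 3216 genes that passed in Balb/cJ and not in Balb/cByJ, the interaction passed in 1 and had an unadjusted p under 0.05 in 541. Of 560 that passed in Balb/cByJ and not in Balb/cJ, it passed in 0 and was under 0.05 in 120. With 11 libraries the numbers were 1 and 466 of 3878 genes for Balb/cJ, and 0 and 54 of 146 for Balb/cByJ. The counts of TAC effects rested on single libraries. In Balb/cByJ the count was 6 without sham Balb/cByJ 1, 75 without sham Balb/cByJ 3, 515 without TAC Balb/cByJ 4, 469 without TAC Balb/cByJ 5 and 2815 without TAC Balb/cJ 6. In Balb/cJ it was 2156 without TAC Balb/cJ 6, 2188 without sham Balb/cJ 2 and 2609 without sham Balb/cJ 3.

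**Figure D1:**
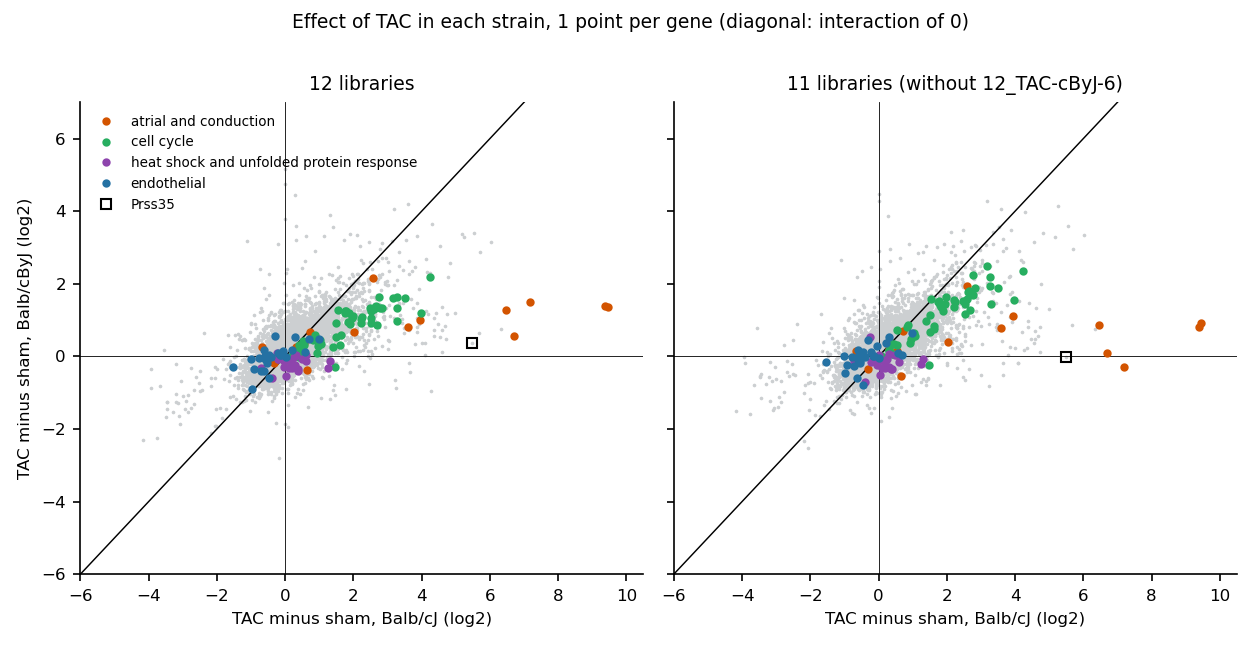
Effect of TAC on each of the 14038 genes tested, as log2 TAC minus sham in Balb/cByJ (vertical axis) against Balb/cJ (horizontal axis), with 12 libraries on the left and the 11 without the library labelled TAC Balb/cByJ 6 on the right. Each grey point is a gene, coloured points are members of 4 gene lists, the square is Prss35, and distance below the diagonal is a negative interaction; several atrial genes lie far to the right with small values on the vertical axis, and cell cycle genes lie below the diagonal (52 of 52 on the left, 49 of 52 on the right).

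The group behind an interaction was read from the 4 log2 group means. A single group was named where the means of the other 3 spanned at most 0.5 times the size of the interaction. Genes whose groups lay 2 against 2, as in opposite movement, can also meet that limit. A named group is therefore not always the only unusual one. Sham Balb/cJ was the group most often named. Of the 954 genes under 0.05, it stood low in 198 and high in 161, which together is 37.6%. Sham Balb/cByJ stood low in 75 and high in 81, TAC Balb/cJ low in 60 and high in 41, and TAC Balb/cByJ low in 22 and high in 47. No single group was named for 269. With 11 libraries sham Balb/cJ stood low in 172 and high in 124 of 802 genes, or 36.9%. With a limit of 0.25 times the interaction the shares were 12.3% with 12 libraries and 11.8% with 11. Over all 14038 genes tested, sham Balb/cJ stood low in 5.31% and high in 4.77%, the largest shares of the 8 there too. Among genes under 0.05 with an interaction of more than 1 log2 unit, sham Balb/cJ stood low in 98 of 276 with 12 libraries and in 86 of 220 with 11. In that set sham Balb/cJ stood high in 26 (20 with 11 libraries) and sham Balb/cByJ stood low in 31 (18 with 11 libraries). Strain passed in 1 gene after TAC (0.00712%; 75 genes, 0.534%, with 11 libraries) and in 1175 after sham (8.37%). The count after sham was 623, 411 and 636 without sham Balb/cByJ 1, 2 and 3 and 321 without sham Balb/cJ 2. The strain difference was larger after sham than after TAC in 722 of the 954 genes (75.9%) and in 558 of the 802 with 11 libraries, against 60.8% of all genes tested with 12. These shares describe the means that the test itself used, and are no separate test.

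**Figure D2:**
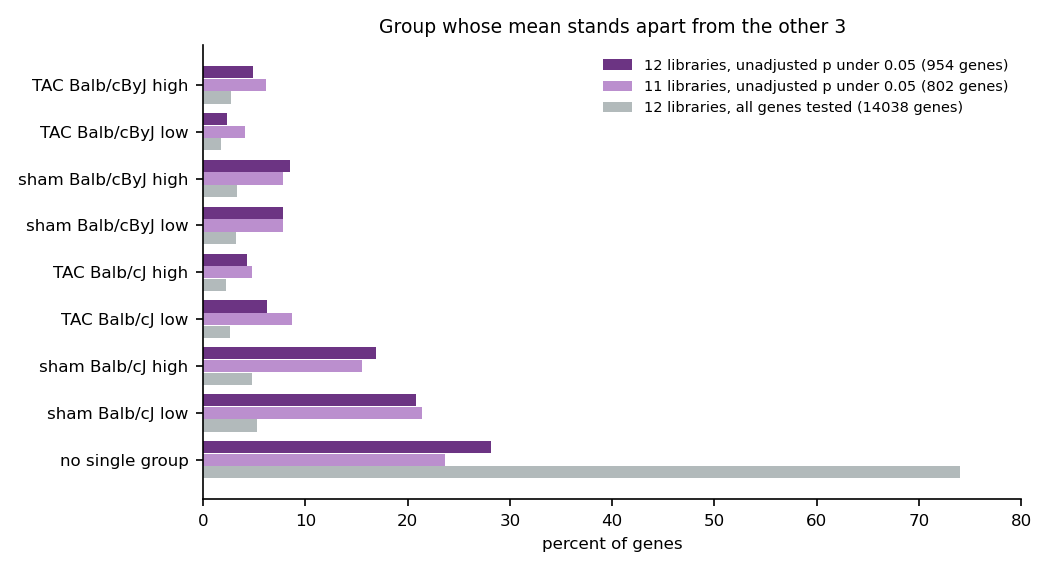
Percent of genes (horizontal axis) for which the rule with a limit of 0.5 named each group mean as apart from the other 3, high or low (vertical axis), for genes with an unadjusted interaction p under 0.05 with 12 libraries (dark bars) and 11 libraries (light bars) and for all genes tested (grey bars). The sham Balb/cJ bars are the longest among the 8 single-group classes, in all 3 sets.

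Genes that stood low in sham Balb/cJ led the negative interactions. Fmod, which encodes the collagen-binding proteoglycan fibromodulin, had 695, 1468 and 623 in TAC Balb/cByJ and 339, 1017 and 491 in sham Balb/cByJ. In Balb/cJ it had 365, 493 and 1531 after TAC and 12, 17 and 8 after sham, so 3 groups overlapped and sham Balb/cJ lay below all of them. Its interaction was -5.03 ± 0.75 (limma adjusted p = 0.132) and -4.80 ± 0.80 (adjusted p = 0.261) with 11 libraries. Without TAC Balb/cJ 4 (-5.45), TAC Balb/cJ 6 (-4.42) or sham Balb/cByJ 1 (-5.39) it passed. Upk3b, a uroplakin gene that marks mesothelium and epicardium, had 250, 186 and 192 in TAC Balb/cByJ against 113, 123 and 98 in sham Balb/cByJ. It had 150, 76 and 268 in TAC Balb/cJ against 10, 13 and 5 in sham Balb/cJ, and an interaction of -3.01 ± 0.56 (adjusted p = 0.256; -2.95 with 11 libraries). Clec3a, a C-type lectin gene of cartilage, had 41, 111 and 69 in TAC Balb/cByJ, 36, 121 and 14 in sham Balb/cByJ and 14, 207 and 166 in TAC Balb/cJ. It was listed at 0 in each sham Balb/cJ library, so no fold is given.

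The same shape was present in genes of other kinds. Aqp4, a water channel gene, had 242, 208 and 189 in TAC Balb/cByJ, 223, 343 and 293 in sham Balb/cByJ, 307, 98 and 109 in TAC Balb/cJ and 23, 24 and 45 in sham Balb/cJ (interaction -2.72 ± 0.54; -2.64 ± 0.59 with 11 libraries). Fam167a had 94, 123 and 50, then 83, 84 and 31, then 65, 65 and 68 in those groups, and 8, 7 and 7 in sham Balb/cJ (-2.54 ± 0.55; -2.18 ± 0.51 with 11 libraries). Aqp4 rose by 2.31 with TAC in Balb/cJ (limma adjusted p = 0.00511) and Fam167a by 3.01 (adjusted p = 0.00251), and neither passed in Balb/cByJ. In 3 more abundant genes the interactions were smaller, and sham Balb/cJ again lay below all other libraries. Fkbp10, a chaperone of collagen in the endoplasmic reticulum, had 1131, 1299 and 852 in TAC Balb/cByJ and 900, 1234 and 987 in sham Balb/cByJ, and 1047, 1115 and 1348 in TAC Balb/cJ against 529, 480 and 445 in sham Balb/cJ (-1.20 ± 0.23; -1.03 ± 0.20 with 11 libraries). Tmem98 had an interaction of -0.64 ± 0.15 (-0.55 ± 0.15 with 11 libraries), with sham Balb/cJ at 583 to 614 and the other 9 libraries at 716 to 994. Ints8, a subunit of the Integrator complex that processes small nuclear RNA, had sham Balb/cJ at 288 to 295 and the other 9 libraries at 380 to 489. Its interaction was -0.68 ± 0.16 (adjusted p = 0.444) with 12 libraries and -0.79 ± 0.14 (adjusted p = 0.261) with 11.

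**Figure D3:**
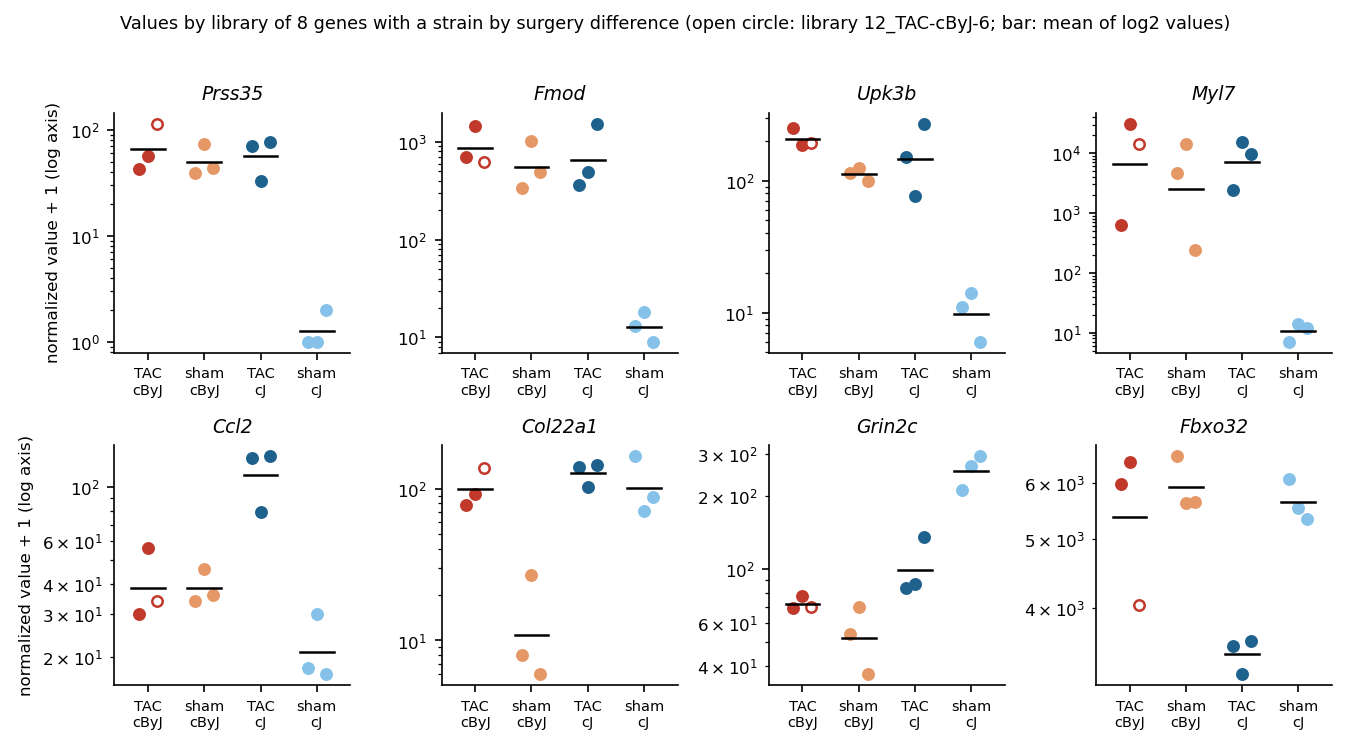
Normalized value plus 1 by library (vertical log axis) for 8 genes in TAC Balb/cByJ, sham Balb/cByJ, TAC Balb/cJ and sham Balb/cJ, with the mean of log2 values as a bar and the library labelled TAC Balb/cByJ 6 as an open circle. Sham Balb/cJ lies apart for Prss35, Fmod, Upk3b, Myl7 and Grin2c, TAC Balb/cJ for Ccl2 and Fbxo32, and sham Balb/cByJ for Col22a1.

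The atrial genes Myl7 and Sln had the same shape. Myl7, the atrial myosin light chain, had 640, 30930 and 14285 in TAC Balb/cByJ and 4670, 14508 and 237 in sham Balb/cByJ. It had 2381, 15126 and 9598 in TAC Balb/cJ and 6, 13 and 11 in sham Balb/cJ. Libraries within the first 3 groups differed by more than 6-fold, and those of sham Balb/cJ were near 0. Sln, the atrial regulator of the calcium pump, had 235, 11703 and 4122, then 1576, 6466 and 64, then 888, 3960 and 2627 in those groups and 2, 8 and 0 in sham Balb/cJ. The interactions were -8.00 ± 2.10 for Myl7 (limma adjusted p = 0.463) and -8.08 ± 2.27 for Sln (adjusted p = 0.563), and -8.56 and -8.52 with 11 libraries.

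Markers of tissues around the ventricle varied between libraries. The summed value of 18 atrial and conduction genes was 57874 to 306880 in TAC Balb/cByJ, 29391 to 156118 in sham Balb/cByJ, 81197 to 215998 in TAC Balb/cJ and 39637 to 53925 in sham Balb/cJ. For 12 epicardial and mesothelial genes it was 1537 to 2067, then 859 to 977, then 1602 to 2550, and 770 to 963 in sham Balb/cJ. For 12 valve and tendon-like matrix genes it was 8191 to 9486, then 5193 to 7201, then 6861 to 12135, and 3516 to 4083 in sham Balb/cJ. Sham Balb/cJ thus lay below all other libraries for the valve list, and overlapped sham Balb/cByJ for the atrial and epicardial lists. Sham Balb/cJ was the group apart in 8 of the 18 atrial genes, with no single group for 9. Median interactions were -0.78 over the atrial list (15 of 18 genes negative; -0.92 with 11 libraries), -1.34 over the epicardial list (9 of 12; -1.05) and -1.30 over the valve list (10 of 12; -1.09), against 0.01 over all genes tested. The atrial median was -0.25 without TAC Balb/cByJ 4 (-0.07 with 11 libraries), -0.52 without sham Balb/cByJ 2 and -1.19 without sham Balb/cByJ 3, and the epicardial median was -0.12 among genes with a mean of at least 50 (-0.23 with 11 libraries). The valve median was -1.22 without Clec3a, whose sham Balb/cJ libraries were at 0. At an unadjusted p under 0.05 there were 7, 6 and 6 negative members, against 3.46% of all genes tested, and 1 atrial member was positive. With 11 libraries there were 8, 6 and 5 negative members and 1 positive atrial one, and 0 passed either way. These lists overlap the leading negative genes, and in tissue RNA fewer cells of a type and less RNA per cell cannot be told apart. With the log2 level of Myl7, Sln and Myl4 as a covariate 0 genes passed the interaction, Prss35 had -4.64, and the atrial median turned to 0.70. With their linear level 7 passed, all negative, and Fmod (-5.02) and Myl7 (-7.95) were among them. Myl7, Sln and Myl4 belong to the atrial list and were themselves lowest in sham Balb/cJ. The atrial median and the Myl7 value were thus adjusted for members of that list, and their changes are no separate result. The part of atrial, valve or epicardial tissue in the other interactions was not tested.

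One set of genes with positive interactions stood high in sham Balb/cJ. Grin2c, a glutamate receptor subunit gene, had 68, 77 and 69 in TAC Balb/cByJ and 53, 69 and 36 in sham Balb/cByJ. It had 83, 86 and 135 in TAC Balb/cJ and 212, 266 and 292 in sham Balb/cJ. Its interaction of 1.83 ± 0.35 (limma adjusted p = 0.257; 1.85 ± 0.39 with 11 libraries) was the positive one with the smallest p among genes with a mean of at least 50. The gene fell with TAC in Balb/cJ (-1.36, adjusted p = 0.0071). Adh1, an alcohol and retinol dehydrogenase, had 640, 684 and 1150 in TAC Balb/cByJ, 561, 703 and 511 in sham Balb/cByJ, 679, 581 and 300 in TAC Balb/cJ and 1526, 1062 and 1051 in sham Balb/cJ (1.72 ± 0.41; 1.45 ± 0.39 with 11 libraries). Xdh, the xanthine dehydrogenase of purine breakdown, had 1939, 1922 and 2184, then 1558, 1601 and 1725, then 1958, 1678 and 1117 in those groups, and 2959, 2534 and 2301 in sham Balb/cJ (1.05 ± 0.24; 0.99 ± 0.26 with 11 libraries). Map4k2, a kinase of stress signalling, had 542, 535 and 594, then 508, 523 and 533, then 520, 451 and 435, and 804, 803 and 627 in sham Balb/cJ (0.76 ± 0.16; 0.71 ± 0.17 with 11 libraries). Sham Balb/cJ lay above all other libraries in Grin2c, Xdh and Map4k2, while for Adh1 the library labelled TAC Balb/cByJ 6 overlapped it. The rule named no single group for Grin2c, whose other 3 means spanned more than 0.5 times its interaction. Ablim3 (0.74 ± 0.18; 0.65 ± 0.18 with 11 libraries) and Htatip2 (0.56 ± 0.17; 0.67 ± 0.16 with 11 libraries) were of the same kind, with sham Balb/cJ at 1891 to 2408 and 910 to 1059 and the other libraries at 1218 to 1628 and 545 to 809.

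Some endothelial genes were among them, though for Robo4 the TAC Balb/cByJ libraries overlapped sham Balb/cJ. Gpihbp1, which carries lipoprotein lipase across capillary endothelium, had 2104, 2214 and 1864 in TAC Balb/cByJ and 2103, 1940 and 2462 in sham Balb/cByJ. It had 1805, 2176 and 1245 in TAC Balb/cJ and 3491, 3624 and 3089 in sham Balb/cJ. Its interaction was 0.93 ± 0.24 (limma adjusted p = 0.463) and 1.00 ± 0.26 with 11 libraries, and it fell with TAC in Balb/cJ (adjusted p = 0.00537). Robo4, an endothelial guidance receptor, had 1111, 882 and 967 in TAC Balb/cByJ, 876, 825 and 921 in sham Balb/cByJ, 839, 849 and 764 in TAC Balb/cJ and 1487, 1294 and 1010 in sham Balb/cJ (0.78 ± 0.19; 0.79 ± 0.21 with 11 libraries). Gata2, a transcription factor of endothelial and mast cells, had 489, 528 and 521, then 470, 471 and 417, then 514, 506 and 316, and 872, 687 and 705 in sham Balb/cJ (0.97 ± 0.24; 0.95 ± 0.26 with 11 libraries). Of 26 endothelial genes, 20 had a positive interaction with a median of 0.29 (21 and 0.39 with 11 libraries). Sham Balb/cJ stood high in 4 of the 26 and TAC Balb/cJ low in 4, with no single group for 16. With 11 libraries these numbers were 4, 7 and 12. The median strain difference over the list was -0.07 after sham and 0.27 after TAC (0.29 with 11 libraries). Under 0.05 were 6 positive members with 12 libraries and 6 with 11, against 3.33% and 2.88% of all genes tested. TAC lowered 0 and raised 1 of the 26 in Balb/cByJ (0 and 0 with 11 libraries), against 4.76% and 7.81% of all genes tested with 12 libraries. In Balb/cJ it lowered 13 and raised 2, against 16.2% and 15.3%.

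Cytosolic ribosomal protein genes had small interactions, mostly positive, of which 0 passed. Of 76 measured, 73 had a positive interaction, with a median of 0.25 (74 and 0.23 with 11 libraries), and 11 were under 0.05 with 12 libraries and 4 with 11, all positive, against 3.33% and 2.88% of all genes tested. TAC lowered 0 and raised 1 of them in Balb/cByJ (0 and 0 with 11 libraries), and lowered 49 in Balb/cJ, against 16.2% of all genes tested. Sham Balb/cJ stood high in 45. Rpl37 had 2504, 3171 and 2860 in TAC Balb/cByJ, 2950, 2798 and 2818 in sham Balb/cByJ, 2761, 2840 and 2432 in TAC Balb/cJ and 3277, 3832 and 3491 in sham Balb/cJ (0.39 ± 0.14; 0.38 ± 0.16 with 11 libraries). Rpl23 had an interaction of 0.45 ± 0.17 (0.39 ± 0.18 with 11 libraries). Of 76 nuclear genes of oxidative phosphorylation, 70 had a positive interaction with a median of 0.21 (0.20 with 11 libraries), but 0 were under 0.05 either way. TAC lowered 6 of those in Balb/cByJ (0 with 11 libraries) and 65 in Balb/cJ, against 4.76% (0.926%) and 16.2% of all genes tested. The medians kept their sign when libraries were rescaled to the same total, at 0.19 for ribosomal and 0.15 for oxidative phosphorylation genes. They depended on single libraries: the ribosomal one was 0.16 without TAC Balb/cJ 6, and the other was 0.04 without TAC Balb/cJ 6, 0.07 without sham Balb/cJ 2, 0.14 without TAC Balb/cByJ 5, 0.33 without TAC Balb/cJ 4 and 0.34 without sham Balb/cJ 1. Genes of such a family move together from library to library, so counts over members are not independent. Ribosomal protein genes have many near-identical pseudogenes, and how shared reads were counted is not given in the sources used here, so single values are uncertain.

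Cell cycle genes had a smaller median effect of TAC in Balb/cByJ. All 52 members of the list had a negative interaction with 12 libraries, with a median of -0.99. With 11 libraries it was 49 of 52 and a median of -0.53. The median was -0.64 without TAC Balb/cJ 6. TAC raised 4 of them in Balb/cByJ, where their median effect was 0.94 (8 and 1.35 with 11 libraries), and 45 in Balb/cJ, where it was 1.82. Of all genes tested TAC raised 7.81% in Balb/cByJ (3.97% with 11 libraries) and 15.3% in Balb/cJ. Summed over the list, values were 6174, 5523 and 4092 in TAC Balb/cByJ and 3691, 4747 and 3658 in sham Balb/cByJ. They were 5529, 6856 and 8837 in TAC Balb/cJ and 3884, 3158 and 3260 in sham Balb/cJ. The lowest of the 6 TAC libraries was the one that went against its label, and the highest was TAC Balb/cJ 6. Under 0.05 were 9 members with 12 libraries and 3 with 11, all negative, against 3.46% and 2.84% of all genes tested, and 0 passed. Cenpf, a kinetochore protein, had 495, 223 and 293, then 284, 498 and 418, then 496, 172 and 293 in the first 3 groups and 77, 94 and 161 in sham Balb/cJ (-1.75 ± 0.56; -1.69 ± 0.62 with 11 libraries). Kif20a, a kinesin of cell division, had 121, 112 and 44 in TAC Balb/cByJ against 65, 70 and 70 in sham Balb/cByJ, and 124, 146 and 215 in TAC Balb/cJ against 54, 47 and 52 in sham Balb/cJ. Its interaction was -1.31 ± 0.46, and -0.85 ± 0.30 with 11 libraries.

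Genes of the unfolded protein response were examined for their values and for a promoter sequence, and no interaction among them passed. The endoplasmic reticulum folds secreted and membrane proteins, and when unfolded proteins build up, ATF6 and other sensors turn on chaperone genes through a promoter sequence named the ER stress element. That element, CCAAT and CCACG with 9 free bases between them, read on either strand, was searched in RefSeq promoter windows of GRCm38.p6, from 250 bases before to 50 after the start of each gene. It was present for 37 of 27025 genes (0.137%). Of 26 genes in the list of heat shock and the unfolded protein response, 22 had a window and 6 of these held the element. The 250 bases before the start are shown for 4 of the 6, chosen after their values were seen, because their proteins are abundant chaperones and their interactions were all negative; capitals mark the element.
Pdia6 (chr12:17266339-17266588, + strand): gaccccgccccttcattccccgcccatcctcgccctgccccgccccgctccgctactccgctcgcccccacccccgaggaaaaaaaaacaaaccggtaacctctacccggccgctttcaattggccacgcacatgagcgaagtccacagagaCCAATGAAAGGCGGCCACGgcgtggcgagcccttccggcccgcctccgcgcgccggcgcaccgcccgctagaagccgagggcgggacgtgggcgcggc
Hspa5 (chr2:34771840-34772089, + strand): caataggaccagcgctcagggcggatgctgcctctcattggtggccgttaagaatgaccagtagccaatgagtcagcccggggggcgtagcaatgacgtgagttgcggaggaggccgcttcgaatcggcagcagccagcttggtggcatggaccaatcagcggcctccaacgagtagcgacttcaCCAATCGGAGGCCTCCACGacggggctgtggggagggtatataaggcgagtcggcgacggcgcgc
Hsp90b1 (chr10:86705445-86705694, - strand): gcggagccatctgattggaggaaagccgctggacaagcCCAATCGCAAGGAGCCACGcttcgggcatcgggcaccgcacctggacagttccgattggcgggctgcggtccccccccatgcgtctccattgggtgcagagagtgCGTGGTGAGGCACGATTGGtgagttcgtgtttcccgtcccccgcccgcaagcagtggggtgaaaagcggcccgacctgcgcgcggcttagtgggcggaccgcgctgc
Calr (chr8:84846932-84847181, - strand): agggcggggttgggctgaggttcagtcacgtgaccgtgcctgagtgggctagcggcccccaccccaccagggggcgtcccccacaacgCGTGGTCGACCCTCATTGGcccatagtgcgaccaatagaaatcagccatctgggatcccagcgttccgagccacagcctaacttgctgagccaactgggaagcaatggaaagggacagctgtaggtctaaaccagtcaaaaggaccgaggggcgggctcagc
The element lay once before Pdia6 and Hspa5 in the direction of the gene, once before Calr on the other strand, and in both directions before Hsp90b1. A match describes letters in the window and does not show binding.

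Pdia6, a disulfide isomerase, had 2777, 3169 and 3109 in TAC Balb/cByJ and 3880, 3545 and 3374 in sham Balb/cByJ. It had 3591, 3754 and 3312 in TAC Balb/cJ and 2921, 2809 and 2928 in sham Balb/cJ. The TAC and sham libraries did not overlap in either strain, and they lay in opposite order. Pdia6 fell by 0.25 with TAC in Balb/cByJ (adjusted p = 0.0929) and rose by 0.30 in Balb/cJ (adjusted p = 0.0304). Without the library labelled TAC Balb/cByJ 6 the value in Balb/cByJ was -0.28, which did not pass (adjusted p = 0.149). The interaction was -0.55 ± 0.12 (limma adjusted p = 0.365) and -0.57 ± 0.13 (adjusted p = 0.58) with 11 libraries. The rule named sham Balb/cJ as the group apart, but its libraries overlapped those of TAC Balb/cByJ. All libraries of sham Balb/cByJ and TAC Balb/cJ lay above both, so sham Balb/cJ did not stand alone. Hyou1, which works with Hspa5, had 1275, 1333 and 1263 in TAC Balb/cByJ, 1798, 1503 and 1667 in sham Balb/cByJ, 1940, 1962 and 1502 in TAC Balb/cJ and 1452, 1195 and 1526 in sham Balb/cJ. Its interaction was -0.73 ± 0.17 (-0.71 ± 0.19 with 11 libraries), and the rule named TAC Balb/cJ, which overlapped sham Balb/cByJ.

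Hspa5, the main chaperone of this organelle, had 14761, 15658 and 14876 in TAC Balb/cByJ, 22903, 21408 and 21229 in sham Balb/cByJ, 19738, 20444 and 13462 in TAC Balb/cJ and 15401, 17459 and 18970 in sham Balb/cJ (-0.56 ± 0.21; -0.55 ± 0.23 with 11 libraries). Sham Balb/cByJ was the group apart and lay above every other library. Hsp90b1 had 8991, 9018 and 9740 in TAC Balb/cByJ and 12012, 10592 and 10346 in sham Balb/cByJ, against 11552, 12127 and 9469 in TAC Balb/cJ and 10141, 9574 and 9840 in sham Balb/cJ (-0.40 ± 0.15; -0.44 ± 0.16 with 11 libraries). Calr, a lectin chaperone that binds calcium, had 7544, 8004 and 8631, then 9519, 9375 and 8804, then 9472, 10357 and 8670, and 8526, 7705 and 8589 in sham Balb/cJ (-0.39 ± 0.13; -0.45 ± 0.14 with 11 libraries). For both of these the rule named TAC Balb/cByJ as the group apart, with 2 of its 3 libraries below all others for Hsp90b1. For Calr it overlapped sham Balb/cJ, and all libraries of the other 2 groups lay above both. Since these genes were chosen after their values were seen, their shared direction is no result.

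Over the whole list of 26, 22 genes had a negative interaction and 9 of these were under 0.05, against 3.46% of all genes tested, with a median of -0.40. With 11 libraries the numbers were 21, 9 and -0.44, against 2.84%, and 1 member was positive under 0.05. The median effect of TAC was -0.20 in Balb/cByJ (-0.16 with 11 libraries) and 0.20 in Balb/cJ, and 0 members passed the interaction. TAC lowered 4 and raised 0 in Balb/cByJ (0 and 0 with 11 libraries), and lowered 1 and raised 7 in Balb/cJ. Of all genes tested with 12 libraries it lowered 4.76% and raised 7.81% in Balb/cByJ, and lowered 16.2% and raised 15.3% in Balb/cJ. No scaling or covariate tried turned the sign of the list median, which ran from -0.55 to -0.30 over the alternatives with 12 libraries. Of 16 tested genes with the element, 12 had a negative interaction (13 with 11 libraries). Under 0.05 were 6 negative ones with 12 libraries and 6 with 11, against 3.46% and 2.84% of all genes tested, and 0 positive ones. The list supplied 6 of the 16, so these counts are not independent of those over the list. Magt1, which serves protein glycosylation in the same organelle, had 864, 825 and 977 in TAC Balb/cByJ and 1149, 1109 and 1161 in sham Balb/cByJ. It had 870, 822 and 810 in TAC Balb/cJ and 742, 766 and 763 in sham Balb/cJ. It fell with TAC in Balb/cByJ (-0.36, limma adjusted p = 0.04; -0.43 with 11 libraries, adjusted p = 0.0435), and its interaction was -0.50 ± 0.12 (-0.57 ± 0.11 with 11 libraries; adjusted p = 0.444).

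**Figure D4:**
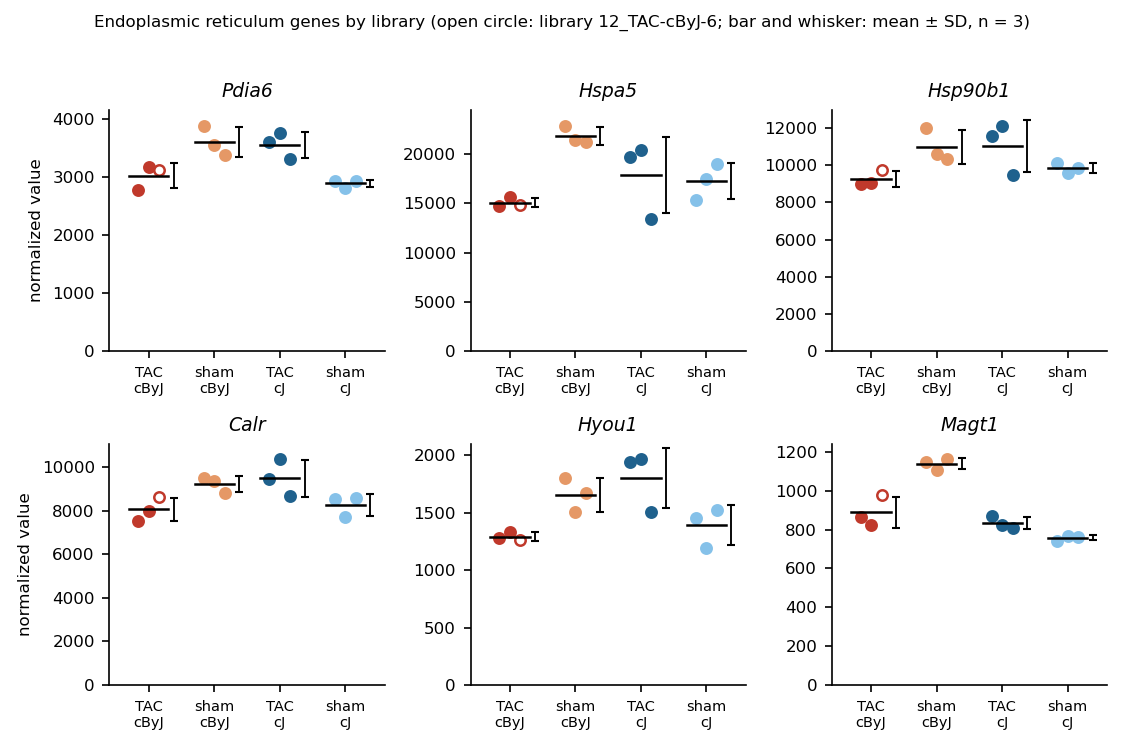
Normalized values by library (vertical axes from 0) of 6 genes of the endoplasmic reticulum in TAC Balb/cByJ, sham Balb/cByJ, TAC Balb/cJ and sham Balb/cJ, with mean ± SD (n = 3) and the library labelled TAC Balb/cByJ 6 as an open circle. In each gene the TAC mean lies below the sham mean in Balb/cByJ and above it in Balb/cJ.

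TAC Balb/cJ was the group apart for Ccl2 and Atf3 among inflammatory genes. Ccl2, the chemokine that draws monocytes, had 29, 55 and 33 in TAC Balb/cByJ and 33, 45 and 35 in sham Balb/cByJ. It had 131, 78 and 133 in TAC Balb/cJ and 17, 29 and 16 in sham Balb/cJ. The gene rose by 2.42 with TAC in Balb/cJ (limma adjusted p = 0.0029), against 0.01 in Balb/cByJ (adjusted p = 0.99). The interaction was -2.41 ± 0.45 (adjusted p = 0.256) and -2.32 ± 0.49 (adjusted p = 0.482) with 11 libraries. Atf3, a transcription factor of early stress responses, had 280, 323 and 190, then 285, 395 and 284, then 912, 542 and 241, and 237, 163 and 223 in sham Balb/cJ (-1.56 ± 0.53; -1.34 ± 0.55 with 11 libraries), so 1 TAC Balb/cJ library overlapped the other groups. Ptx3, a secreted pattern recognition protein, had 87, 92 and 77 in TAC Balb/cByJ and 48, 83 and 71 in sham Balb/cByJ, against 153, 166 and 76 in TAC Balb/cJ and 40, 29 and 35 in sham Balb/cJ (-1.46 ± 0.41; -1.39 ± 0.45 with 11 libraries). Ccr2, the receptor of Ccl2, rose in both strains, by 1.87 in Balb/cByJ (adjusted p = 0.0435; 1.77 with 11 libraries, adjusted p = 0.101) and by 3.92 in Balb/cJ (adjusted p = 0.00123). Its interaction was -2.06 ± 0.62 (-2.16 ± 0.68 with 11 libraries). Its values were 141, 72 and 125 in TAC Balb/cByJ, 28, 43 and 20 in sham Balb/cByJ, 90, 69 and 230 in TAC Balb/cJ and 9, 6 and 5 in sham Balb/cJ. Thus the TAC groups overlapped and the sham groups did not. No single group was named for Ptx3 or Ccr2. The lists as wholes were closer to 0, with medians of -0.22 over 33 cytokine and acute inflammation genes and -0.20 over 30 macrophage and monocyte genes, and of -0.06 and -0.07 with 11 libraries.

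Other genes stood low in TAC Balb/cJ. Fbxo32, the muscle ubiquitin ligase atrogin-1, had 5969, 6410 and 4033 in TAC Balb/cByJ and 6542, 5622 and 5638 in sham Balb/cByJ. It had 3532, 3226 and 3595 in TAC Balb/cJ and 6076, 5533 and 5341 in sham Balb/cJ. It fell with TAC in Balb/cJ (-0.71, limma adjusted p = 0.0101). The interaction was 0.57 ± 0.21 with 12 libraries (adjusted p = 0.721) and 0.77 ± 0.14 with 11 (adjusted p = 0.292), since the library labelled TAC Balb/cByJ 6 lay near TAC Balb/cJ. Tns2, a focal adhesion protein, had 5365, 5551 and 5568 in TAC Balb/cByJ, 4969, 4953 and 4871 in sham Balb/cByJ, 4237, 4263 and 3761 in TAC Balb/cJ and 5229, 5829 and 5060 in sham Balb/cJ (0.55 ± 0.11; 0.54 ± 0.13 with 11 libraries). Rapgef3, the cyclic AMP sensor Epac1, had 800, 754 and 661, then 683, 660 and 584, then 620, 582 and 497, and 822, 937 and 703 in sham Balb/cJ (0.73 ± 0.18; 0.81 ± 0.19 with 11 libraries). Its TAC Balb/cJ values overlapped those of sham Balb/cByJ.

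With 12 libraries sham Balb/cByJ was the group apart in a further set of genes. Col22a1, a collagen of tissue junctions, had 77, 92 and 137 in TAC Balb/cByJ and 7, 26 and 5 in sham Balb/cByJ. In Balb/cJ it had 139, 101 and 143 after TAC and 163, 70 and 87 after sham, so only sham Balb/cByJ lay apart. The gene rose by 3.20 with TAC in Balb/cByJ (limma adjusted p = 0.0181; 2.97 with 11 libraries, adjusted p = 0.0387), against 0.33 in Balb/cJ (adjusted p = 0.65). The interaction was 2.86 ± 0.69 (adjusted p = 0.449) and 2.63 ± 0.73 with 11 libraries. Irak3, an inhibitor of Toll-like receptor signalling, had 247, 223 and 275 in TAC Balb/cByJ, 106, 137 and 108 in sham Balb/cByJ, 221, 216 and 212 in TAC Balb/cJ and 186, 265 and 179 in sham Balb/cJ. It rose by 1.08 with TAC in Balb/cByJ (adjusted p = 0.0181), against 0.07 in Balb/cJ, and the interaction was 1.02 ± 0.23 (0.94 ± 0.25 with 11 libraries). Mctp1, a membrane protein that binds calcium, had 65, 60 and 69 in TAC Balb/cByJ against 20, 32 and 32 in sham Balb/cByJ, and 62, 91 and 76 in TAC Balb/cJ against 115, 91 and 188 in sham Balb/cJ. It rose by 1.21 in Balb/cByJ (adjusted p = 0.04) and fell by 0.73 in Balb/cJ (adjusted p = 0.0787), with an interaction of 1.93 ± 0.39 (1.89 ± 0.43 with 11 libraries). Abcg2, a drug and urate exporter, had an interaction of 0.78 ± 0.18 (0.66 ± 0.17 with 11 libraries), with 571, 499 and 488 in sham Balb/cByJ below the other 9 libraries (645 to 934). With 11 libraries no single group was named for Mctp1 or Abcg2.

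The rule named TAC Balb/cByJ as the group apart for Clec3b and Prph, though for Clec3b it overlapped both Balb/cJ groups. Clec3b, which encodes tetranectin, had 2499, 2873 and 2717 in TAC Balb/cByJ, 1735, 2365 and 2005 in sham Balb/cByJ, 2634, 2413 and 1521 in TAC Balb/cJ and 2441, 2745 and 2240 in sham Balb/cJ, with an interaction of 0.63 ± 0.25 (0.62 ± 0.28 with 11 libraries). Prph, an intermediate filament gene of peripheral nerve, had 7, 358 and 195 in TAC Balb/cByJ and 4 to 13 in the other 9 libraries. Its interaction of 2.71 ± 1.45 (2.08 ± 1.52 with 11 libraries; limma adjusted p = 0.748) rested on TAC Balb/cByJ libraries 5 and 6, and was 4.39 without TAC Balb/cByJ 4, where it passed together with Prss35, Snap25 and Stmn3, the last of which, like Snap25, was chosen after its values were seen. The summed value of 11 nerve and Schwann cell genes was also high in those libraries, at 1568, 3266 and 2470 in TAC Balb/cByJ, against 1478 to 1776 in sham Balb/cByJ, 1549 to 1623 in TAC Balb/cJ and 1035 to 1283 in sham Balb/cJ, and the part of nerve tissue was not tested. Ighm, the heavy chain of immunoglobulin M, had 366, 453 and 445 in TAC Balb/cByJ and 113, 191 and 129 in sham Balb/cByJ, against 253, 195 and 290 in TAC Balb/cJ and 176, 183 and 107 in sham Balb/cJ. It rose by 1.57 with TAC in Balb/cByJ (adjusted p = 0.0181), against 0.68 in Balb/cJ (adjusted p = 0.0615), and the interaction was 0.89 ± 0.34 (0.85 ± 0.37 with 11 libraries) with no single group apart.

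The interactions of the usual marker genes of load did not pass. Myh7, the fetal myosin heavy chain, had 86367, 68689 and 94553 in TAC Balb/cByJ and 43079, 46295 and 47958 in sham Balb/cByJ. It had 61639, 77247 and 65746 in TAC Balb/cJ and 58681, 69371 and 57297 in sham Balb/cJ. Myh7 rose by 0.85 in Balb/cByJ (limma adjusted p = 0.025; 0.75 with 11 libraries, adjusted p = 0.0624), against 0.14 in Balb/cJ (adjusted p = 0.54). At 0.71 ± 0.22 its interaction missed the threshold (adjusted p = 0.669; 0.61 ± 0.23 with 11 libraries), and sham Balb/cByJ lay below the other 9 libraries. Nppa, the atrial natriuretic peptide gene, had 19809, 132138 and 82380, then 14517, 58863 and 2851, then 32183, 102846 and 123392, and 12232, 8401 and 18449 in sham Balb/cJ. Its interaction of -0.43 ± 1.34 (-0.66 ± 1.46 with 11 libraries) had an SE 3 times its size. The values for Nppb (0.54 ± 0.35; 0.46 ± 0.39 with 11 libraries) and Myh6 (0.20 ± 0.42; 0.09 ± 0.48 with 11 libraries) were within 2 SE of 0. Thbs1, a matricellular protein, had 1614, 2072 and 1279, then 1038, 1521 and 1470, then 2426, 2213 and 2989, and 856, 693 and 1393 in sham Balb/cJ (-1.13 ± 0.35; -0.96 ± 0.35 with 11 libraries). TAC raised 7.81% of all genes tested in Balb/cByJ (3.97% with 11 libraries) and 15.3% in Balb/cJ. Of 75 matrix and fibrosis genes, TAC raised 55 in Balb/cByJ (47 with 11 libraries) and 69 in Balb/cJ. Their median interaction was -0.20 (58 negative), and -0.10 (48 negative) with 11 libraries, and with 12 libraries it turned to 0.04 without TAC Balb/cJ 6.

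Genes of fat use had interactions that did not pass. Acads had 5674, 5613 and 6697 in TAC Balb/cByJ, 6929, 6234 and 6925 in sham Balb/cByJ, 8670, 7252 and 5415 in TAC Balb/cJ and 9033, 10928 and 10628 in sham Balb/cJ, with an interaction of 0.38 ± 0.21 (limma unadjusted p = 0.0991, adjusted p = 0.748; 0.30 ± 0.22 with 11 libraries). These whole-gene values do not resolve the deletion itself. Of 38 genes of fatty acid uptake and oxidation, 0 were under 0.05 either way, with a median of -0.06 (-0.03 with 11 libraries), 25 negative and 13 positive. TAC lowered 16 of them in Balb/cByJ, but 1 with 11 libraries, and 23 in Balb/cJ, against 4.76%, 0.926% and 16.2% of all genes tested. Acot1, an acyl-CoA thioesterase that PPAR alpha turns on, had 172, 279 and 142 in TAC Balb/cByJ, 509, 520 and 417 in sham Balb/cByJ, 429, 191 and 51 in TAC Balb/cJ and 157, 163 and 143 in sham Balb/cJ (-1.40 ± 0.77; -1.19 ± 0.83 with 11 libraries). Sham Balb/cByJ was the group apart, with 1 TAC Balb/cJ library overlapping it. Acot1 has near-identical neighbours, so its counts are uncertain.

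Opposite movement without overlap was rare. In 44 genes (0.313%) the 3 TAC libraries lay beyond the 3 sham libraries in both strains but on opposite sides, 20 higher with TAC in Balb/cByJ and 24 lower. In 2313 genes (16.5%) they lay beyond on the same side. Without the library labelled TAC Balb/cByJ 6 there were 102 opposite genes (0.727%), 46 and 56, a count that 2 libraries in place of 3 make easier to reach. With 3 libraries per group such an order can arise without an effect, and how many genes would then show it was not estimated. Tns2, Map4k2, Xdh and Gata2 were among those higher with TAC in Balb/cByJ, and Pdia6, Calr and Magt1 among those lower.

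The library that went against its label set the size of some interactions. Dnah17, an axonemal dynein, had 953, 826 and 2 in TAC Balb/cByJ and 805 to 1019 in sham Balb/cByJ, against 3 to 4 in TAC Balb/cJ and 1 to 11 in sham Balb/cJ. Its interaction was -2.61 ± 2.30 with 12 libraries and 0.13 ± 0.72 with 11. Glo1, a glyoxalase, had 6270, 6368 and 2076 in TAC Balb/cByJ, 6570 to 7734 in sham Balb/cByJ, 1903 to 2233 in TAC Balb/cJ and 2469 to 3237 in sham Balb/cJ, and its interaction was -0.26 ± 0.46 and 0.28 ± 0.17. For Zhx2 the values were -2.05 ± 1.10 and -0.71 ± 0.27. Mlana, a melanocyte gene, had 1069, 1306 and 112 in TAC Balb/cByJ, 802, 1271 and 1126 in sham Balb/cByJ, 57, 112 and 133 in TAC Balb/cJ and 2, 1 and 20 in sham Balb/cJ, with -5.21 ± 1.30 and -4.08 ± 1.02. Spp1, which encodes osteopontin, had 1811, 651 and 84, then 257, 1125 and 270, then 384, 175 and 571, and 15, 14 and 10 in sham Balb/cJ. Its interaction was -4.50 ± 1.27 with 12 libraries and -3.27 ± 0.88 with 11, so sham Balb/cJ lay lowest by either count.

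Of the gene lists not yet described, 5 red blood cell genes had the highest median interaction, 0.77 (0.95 with 11 libraries), all 5 were positive, and 0 were under 0.05 either way. That median was 0.42 without TAC Balb/cByJ 5, 0.34 without sham Balb/cByJ 3, 0.44 without TAC Balb/cJ 6 and 0.38 without sham Balb/cJ 2. For 12 adipocyte genes the median was -1 log2 unit (-0.81 with 11 libraries), with 8 negative members, of which 0 were under 0.05, and 1 positive member under 0.05. It ran from -2.34 without sham Balb/cByJ 3 to -0.31 without TAC Balb/cByJ 4, and with 11 libraries it turned to 0.28 without TAC Balb/cByJ 4. The 10 mitochondrially encoded genes had a median of 0.32 (0.30 with 11 libraries), which was 0.18 among genes with a mean of at least 50, 0.14 without TAC Balb/cJ 6, 0.18 without sham Balb/cJ 2 and 0.20 without sham Balb/cByJ 2. The 19 immediate-early genes, which answer stimuli within minutes and include Atf3, had a median of -0.52 (-0.60 with 11 libraries). Under 0.05 were 4 negative members with 12 libraries and 3 with 11, against 3.46% and 2.84% of all genes tested. For 28 cardiac stress and fetal genes the median was -0.12 and turned to 0.07 with 11 libraries. Genes of contraction and calcium handling had a median of -0.01 (-0.03 with 11 libraries).

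**Figure D5:**
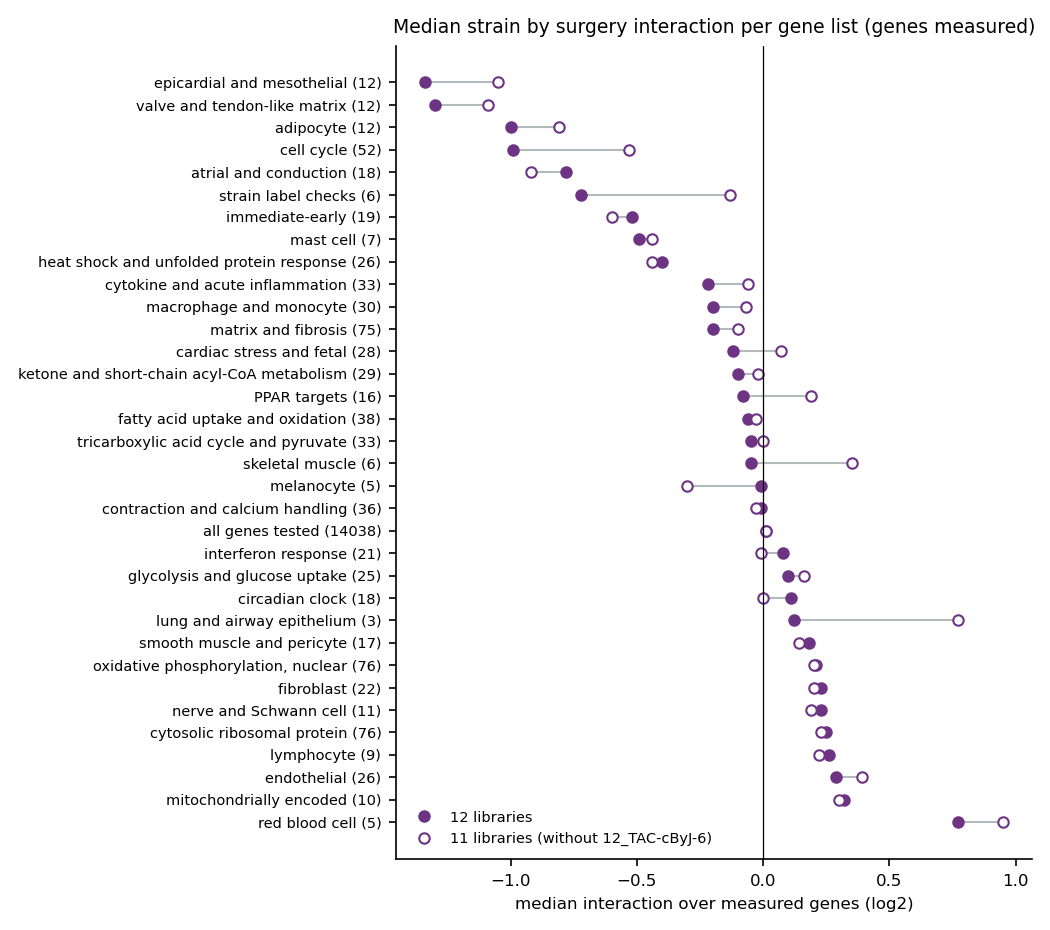
Median strain by surgery interaction (horizontal axis, log2) of each gene list and of all genes tested (vertical axis, with the number of genes measured), with 12 libraries (filled) and with the 11 without the library labelled TAC Balb/cByJ 6 (open). All genes tested have a median of 0.01, the epicardial, valve, adipocyte, cell cycle and atrial lists lie furthest below, and red blood cell genes lie furthest above at 0.77.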

How the data were processed

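RNA of mouse hearts was sequenced in 12 libraries, 3 in each of 4 groups. Reads were processed with STAR, featureCounts (Subread) and DESeq2 on mm10, per the submitters' processing notes. The deposited table holds a score per gene and library: whole numbers with gaps and repeats of the kind that dividing counts by a size factor and rounding leaves. No label or header states that step. The values were treated as normalized by the authors, and no count test was run. The strand setting of the counting is not given in the sources used here.

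Values were taken as log2(value + 1), and differences are on that scale, which understates changes of low genes. The 14038 genes averaging 10 or more were fitted over the 4 groups with limma 3.58.1 (R 4.3.3, trend), and p-values were adjusted over all of them by Benjamini-Hochberg, with a threshold of 0.1. The fit was repeated with 11 libraries. Figures and motif searches used Python 3.11.15. The test was checked on simulated data, with effects added to TAC Balb/cByJ in genes with a mean of at least 50. A low sham Balb/cJ group, as for Prss35, was not simulated, so the check does not cover that call.

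The members and gene lists were chosen with earlier results of these data known. Named genes have a symbol and a mean of at least 50. They are up to 12 per sign by the smallest interaction p with 12 libraries, up to 6 per sign with 11, up to 2 per list, and 10 fixed genes. Not every gene the rule gives is reported here. Prss35 (mean under 50), Manf, Hspa5, Hsp90b1 and Calr lie outside that rule and were chosen after their values were seen. Alternatives changed the filter, pseudocount, scaling, threshold and covariates, and left out each library in turn.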

Additional observations from a re-analysis of the deposited data

Results flagged for a closer look

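The 2 strains' effects of TAC differed by the test of the difference itself in 1 gene, Prss35. Its interaction was -5.10 with 12 libraries (limma adjusted p = 0.0627) and -5.50 without the library labelled TAC Balb/cByJ 6 (adjusted p = 0.0393). The 3 sham Balb/cJ libraries, at 0, 0 and 1, lay below the other 9, which ran from 32 to 113.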

How the results depend on the processing

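With 12 libraries the interaction passed in 1 gene, and in 0 with no filter on low values, a mean of at least 50, a pseudocount of 5, an adjusted p under 0.05, rescaling to equal totals, the log2 atrial covariate or a replicate block. It passed in 7 genes with the linear atrial covariate and in 0 to 4 when 1 library was left out. With 11 libraries it passed in 0 with a mean of at least 50, a pseudocount of 5 or the log2 covariate, in 4 with the linear one, and in 0 to 3 without 1 library. Prss35 had an adjusted p of 0.104 with no filter, 0.116 at equal totals (-5.05), 0.392 with the log2 covariate (-4.64) and 0.221 with the replicate block (-5.10). With 11 libraries it did not pass with no filter (0.108), where 2700046A07Rik, chosen after its values were seen, passed instead, and it had -3.53 with a pseudocount of 5 (0.221), -5.22 with the log2 covariate (0.439) and -5.28 with the block (0.329), where Fmod passed in its place. The cause was not tested.

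With 12 libraries, genes passing for TAC in Balb/cByJ numbered 465 at an adjusted p under 0.05, 694 with the log2 and 252 with the linear covariate, and 6 to 2815 without 1 library. For TAC in Balb/cJ they numbered 2881 at 0.05, 0 with the log2 covariate, and 2156 to 5038 without 1 library. For strain after TAC (1) they were 2 with no filter, 0 at 0.05 and with either covariate, 11 with the replicate block, and 0 to 75 without 1 library. For strain after sham (1175) they were 568 at 0.05, 35 with the log2 covariate, and 321 to 1653 without 1 library. With 11 libraries, TAC in Balb/cByJ gave 165 with no filter, 137 at 0.05, 27 with the linear covariate and 0 to 1954 without 1 library, and strain after TAC (75) gave 44 at 0.05 and 22 to 125 without 1 library.

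Over 57 genes and 23 settings with 12 libraries, 1284 of 1310 values kept their sign and side of the threshold and 6 reversed. With 11 libraries it was 1230 of 1253 over 22 settings, and 8 reversed. Of the 57 genes only Prss35 passed in the main fits, so these totals mostly count values that again did not pass. A change in size did not enter them. Prss35 itself did not pass in 11 of 22 alternatives with 12 libraries and in 11 of 21 with 11. With 12 libraries and the log2 covariate Nppa was 3.75 and Myh6 -0.11. Without 1 library Nppa ran from -1.55 to 0.64 (0.64 without sham Balb/cByJ 2, 0.37 without TAC Balb/cByJ 4), Glo1 from -0.53 to 0.28 and Dnah17 from -4.03 to 0.13 (both reversed without TAC Balb/cByJ 6). With 11 libraries Nppa was 3.83 and Myh6 -0.31 with the log2 covariate, and Myh6 was -0.03 with the block. Without 1 further library Nppa ran from -2.03 to 0.71 (0.71 without TAC Balb/cByJ 4, 0.41 without sham Balb/cByJ 2), Myh6 from -0.03 (without TAC Balb/cJ 6) to 0.24, Dnah17 from -0.47 (without sham Balb/cJ 1) to 0.82 and Prph from -0.66 (without TAC Balb/cByJ 5) to 4.83. The share of genes with sham Balb/cJ as the group apart was taken over those with an unadjusted p under 0.05 (37.6%, and 36.9% with 11 libraries), since over those that passed it rests on 1 gene. It depended on the limit. At 0.25 times the interaction it was 12.3% (11.8% with 11 libraries), and 780 of 954 genes had no single group with 12 libraries. With the farthest group named and no limit it was 55.5% (50.7% with 11 libraries). With the log2 covariate the list medians with 12 and 11 libraries were 0.70 and 0.55 for atrial, 1.67 and 2.23 for adipocyte, -0.84 and -0.55 for valve, 2.13 and 2.63 for red blood cell, -0.52 and -0.20 for cell cycle and -0.14 and -0.14 for mitochondrially encoded genes. The atrial list holds the genes that make up this covariate. Correlations of same-numbered deviations were -0.21, -0.07 and 0.17 after sham and 0.06, 0.10 and -0.05 after TAC. Differently numbered ones ran from -0.19 to 0.25 after sham and from -0.12 to 0.04 after TAC. With 3 libraries per group these values cannot decide whether the numbers pair the samples.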
